A study of Mus musculus with 8 samples.

Results

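Transcripts of 10 enzymes that modify and cross-link collagen were described in activated muscle stem cells (ASCs), the Pax7-expressing stem cells of skeletal muscle that have left quiescence after injury. The set was defined by enzyme family, with earlier results of these data known, and its rule used no measured value. It held the lysyl oxidases Lox, Loxl1, Loxl2, Loxl3 and Loxl4, the lysyl hydroxylases Plod1, Plod2 and Plod3, and the prolyl 4-hydroxylase alpha subunits P4ha1 and P4ha2. All 10 of 10 were among the 18877 genes of the table, and all 10 passed the filter on low values described below. RNA was sequenced from 4 wild-type and 4 mfn2-/- libraries. Both groups carried a mitochondrial Dendra2 reporter switched on through Pax7-CreERT2, a tamoxifen-inducible recombinase driven by the Pax7 gene, and the mfn2-/- mice carried in addition a floxed Mfn2, the gene of the outer mitochondrial membrane protein mitofusin 2. All animals received tamoxifen (75 mg/kg daily, 5 doses). Barium chloride (50 uL at 1.2%) was injected into the tibialis anterior muscle 2 days after the last dose, and cells were sorted 2 days post injury as living, CD34-, Dendra2+ cells. The deletion therefore begins only where and when Pax7-CreERT2 is active, and ages of the mice were not given. The labels do not state that each library came from its own animal, so p-values measure the spread between these libraries, which may in part be technical.

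These enzymes act on collagen at successive steps. In the endoplasmic reticulum, prolyl 4-hydroxylase, made of alpha subunits and the protein disulfide isomerase P4HB, hydroxylates prolines and so stabilises the collagen helix, while the PLOD enzymes hydroxylate lysines. Both kinds of hydroxylase need oxygen, iron, ascorbate and 2-oxoglutarate. Outside the cell, the copper-dependent lysyl oxidases convert lysines and hydroxylysines of collagen, and lysines of elastin, to reactive aldehydes from which the cross-links of the fibre form. In muscle most of this matrix is made by connective tissue cells, and stem cells contribute to the niche around them. Several of the enzymes, P4ha1, P4ha2, Plod1, Plod2, Lox and Loxl2 among them, are known as targets of the hypoxia-induced factor HIF1 in other cells.

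Values below are normalized reads, that is, reads per gene divided by a size factor for each library. Changes are differences of log2(normalized reads + 1), mfn2-/- minus wild-type, tested with limma in 1 fit over the 11754 genes that averaged 10 or more, and a gene was called where its Benjamini-Hochberg adjusted p was under 0.05. Libraries held 1880464 to 7508215 reads, with wild-type replicate 1 and mfn2-/- replicate 4 the shallowest. One read was worth 0.534 to 2.27 normalized reads, and 9646 genes had a read in mfn2-/- replicate 4 against 12613 to 15270 in the other libraries. Y-linked genes had reads in 4 libraries (wild-type 3 and 4, mfn2-/- 1 and 2) and 0 in the other 4, so each change was also computed within these sets. Mfn2 itself had 201.7 to 244.7 normalized reads in wild-type and 104.0 to 172.4 in mfn2-/- libraries, a change of -0.88 that did not pass the test over all genes (adjusted p = 0.0848).

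Of the 10 enzymes 6 were lower in mfn2-/- ASCs and 0 were higher, by limma, by edgeR and by DESeq2 alike (0 higher also at an unadjusted limma p under 0.05). Over all genes tested the shares by limma at the adjusted threshold were 6.36% lower and 3.99% higher. Of the 11754 genes edgeR called 657 lower and 501 higher, and DESeq2 called 1090 lower and 648 higher. The share at an unadjusted p was not computed. The 6 were the 5 lysyl oxidases and Plod1, while Plod2, Plod3, P4ha1 and P4ha2 did not pass the test. For 7 of the 10, the 6 and Plod2, every mfn2-/- library lay below every wild-type library, which held for 12.2% of all genes tested. The median change was -1.85 over the 10 enzymes and -0.16 over all genes tested. In these bulk libraries, fewer cells of a type and less RNA per cell cannot be told apart.

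**Figure D1:**
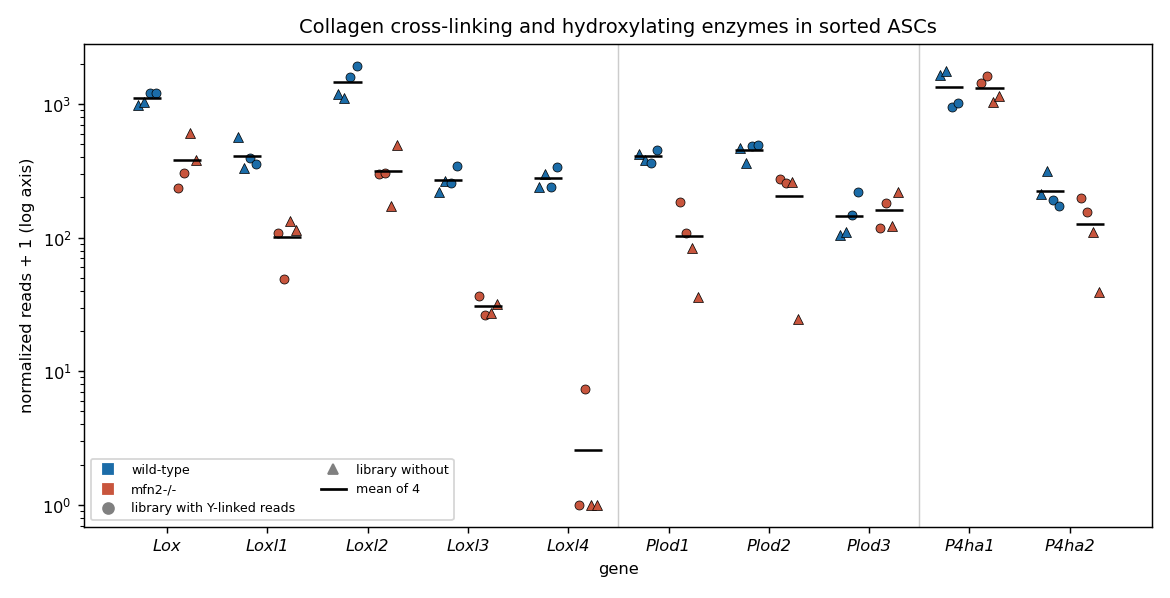
Normalized reads + 1 (log axis) of each enzyme in the 4 wild-type (blue) and 4 mfn2-/- (red) libraries, circles for libraries with Y-linked reads, triangles for those without, and a bar at the mean of 4. The groups lie apart for the 5 lysyl oxidases, Plod1 and Plod2, and they overlap for Plod3, P4ha1 and P4ha2.

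The lysyl oxidases fell as a family, to different degrees. Lox encodes the founding member, secreted as a proenzyme that BMP1 cleaves. It had 982.5, 1028, 1220 and 1211 normalized reads in wild-type replicates 1 to 4, and 232.7, 306.5, 610.2 and 379.3 in mfn2-/- replicates 1 to 4. The groups did not overlap, although mfn2-/- replicate 3 held more than its fellows. The mean was 2.91-fold lower in mfn2-/- cells (1110 ± 123 against 382 ± 163, SD, n = 4 per group), a change of -1.62 on the log2 scale (SE 0.27, limma adjusted p = 0.00187).

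Loxl2, known for cross-linking collagen IV of basement membranes, was the other abundant member. Its wild-type libraries had 1185, 1108, 1585 and 1930 normalized reads, and the mfn2-/- libraries had 298.7, 306.5, 171.0 and 491.1. Every mfn2-/- value was under the lowest wild-type value, and the change was -2.25 (SE 0.30, limma adjusted p = 0.000405). Loxl1, whose product is tied to elastic fibre assembly, had 566.3, 329.8, 392.8 and 355.3 normalized reads in wild-type and 106.7, 48.19, 133.4 and 113.6 in mfn2-/- libraries. The groups again lay apart, with a change of -2.08 (SE 0.36, limma adjusted p = 0.00241).

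Loxl3 and Loxl4 were the less abundant members and changed most. Loxl3 had 218.3, 264.4, 257.2 and 342.4 normalized reads in wild-type libraries, and the mfn2-/- libraries were close together at 35.34, 25.28, 26.53 and 31.15. Its mean was 9.15-fold lower, a change of -3.14 (SE 0.42, limma adjusted p = 0.000405). In Loxl3, 1297 exon bases lie within the span of Htra2, introns included, on the opposite strand. The overlap of exon with exon was not computed. The library kit keeps strand but the counting setting was not given, so reads of this pair cannot be fully told apart. Htra2 had a mean of 26.5 normalized reads over the 8 libraries. Annotated antisense or unconfirmed transcripts on the opposite strand, with no value here, also span 2245 exon bases of Loxl2, 995 of Lox and 346 of Plod2, and the same limit holds for them.

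Loxl4 was nearly undetected in mfn2-/- ASCs. The wild-type libraries had 238.8, 297.6, 237.6 and 337.1 normalized reads, from 105, 287, 291 and 631 reads. The mfn2-/- libraries had 0, 6.32, 0 and 0, the single non-zero value resting on 8 reads. The groups were far apart, with a difference of -7.39 on the log2 scale (SE 0.98, limma adjusted p = 0.000405). With values this low the size depends on the pseudocount, being -9.92 with a pseudocount of 0.1 and -4.66 with 10. Among the members Loxl4 also has a promoter sequence in the RefSeq table used here, which covered 5 of the 10 enzymes (Loxl4, Plod1, Plod3, P4ha1 and P4ha2). The 250 bases before the annotated start are shown because Loxl4 changed most of the 10 (GRCm38.p6, chr19:42612807-42613056, minus strand). Capitals mark ACGTG or GCGTG on either strand, the core letters of sites that HIF1 is known to bind:
Loxl4: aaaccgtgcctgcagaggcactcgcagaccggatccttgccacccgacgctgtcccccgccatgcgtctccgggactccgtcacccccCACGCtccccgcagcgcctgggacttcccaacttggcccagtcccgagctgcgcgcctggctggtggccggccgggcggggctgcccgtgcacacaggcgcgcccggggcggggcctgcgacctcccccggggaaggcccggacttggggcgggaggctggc
One such match was present. These letters occurred in 38.6% of the 32851 promoter windows of the same length, and a match is a description of the sequence only.

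Of the 3 lysyl hydroxylases, Plod1 was lower by the test and the other two did not pass it. Plod1 hydroxylates lysines of the helical part of collagen. It had 425.3, 383.7, 361.0 and 453.0 normalized reads in wild-type libraries and 182.7, 107.4, 82.53 and 34.82 in mfn2-/- libraries. The groups did not overlap, mfn2-/- replicate 4 was lowest, and the change was -2.21 (SE 0.43, limma adjusted p = 0.00549). Without mfn2-/- replicate 4 it was -1.77 (limma adjusted p = 0.00205), and Plod1 was called with any library left out.

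Plod2 hydroxylates lysines of the collagen ends, the telopeptides, where cross-links start. Its values were 466.2, 361.9, 485.1 and 489.9 in wild-type libraries and 272.0, 256.8, 259.4 and 23.82 in mfn2-/- libraries. The mfn2-/- replicates 1 to 3 were close together and replicate 4 lay far under them, from 13 reads. The change was -1.62 with a 95% interval of -2.96 to -0.27, and the limma adjusted p of 0.124 missed the threshold. Without mfn2-/- replicate 4 the change was smaller but passed (-0.77, adjusted p = 0.0389), as it did with library weights (-0.94, adjusted p = 0.0124).

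Plod3, whose product also transfers sugars to hydroxylysine, had 104.6, 108.9, 146.2 and 219.0 normalized reads in wild-type libraries and 116.7, 179.3, 122.3 and 218.1 in mfn2-/- libraries. The ranges covered each other almost fully. The change was 0.15 with a 95% interval of -0.65 to 0.96 (limma adjusted p = 0.837), and its sign turned with 4 of the alternative settings. In Plod3, 785 exon bases lie within the span of Znhit1, introns included, on the opposite strand. Znhit1 had a mean of 10.8 normalized reads.

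Plod1 is also a near neighbour of the targeted gene. In GRCm38 it ends 5048 bases from Mfn2 on chromosome 4, on the same minus strand. Fv1 (3240 bases away) and Miip (4782) lay nearer and were not called (limma adjusted p = 0.915 and 0.718). Both were low and variable in wild-type (27.8 ± 37.8 and 29.7 ± 28.0 normalized reads). Their SEs were 1.504 and 1.275, so a change of the size of that of Plod1 could have gone uncalled. In a window of 200000 bases on each side of Mfn2, chosen after the annotation had been seen, 11 genes were in the table, 8 were tested, and Plod1 was the 1 called. Changes of the uncalled genes ran from -2.16 (Agtrap, SE 1.14) to 0.33 (Fv1). Its upstream 250 bases are shown as those of the called lysyl hydroxylase, with the same letters in capitals (GRCm38.p6, chr4:147936777-147937026, minus strand):
Plod1: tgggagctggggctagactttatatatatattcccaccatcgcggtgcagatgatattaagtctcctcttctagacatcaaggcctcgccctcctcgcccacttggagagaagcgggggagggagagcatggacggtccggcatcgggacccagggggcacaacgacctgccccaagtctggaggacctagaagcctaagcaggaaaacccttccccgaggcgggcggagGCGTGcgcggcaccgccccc
The window held 1 match on the sense strand and 1 TATAAA, counted on either strand, which 12.4% of all promoter windows contained.

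The prolyl 4-hydroxylase alpha subunits did not pass the test. P4ha1, the main catalytic subunit in most tissues, had 1662, 1780, 945.7 and 1024 normalized reads in wild-type libraries and 1432, 1633, 1044 and 1158 in mfn2-/- libraries. The ranges overlapped, and the group means were 1353 ± 429 and 1317 ± 266 (SD, n = 4 per group). The change was -0.00 with a 95% interval of -0.53 to 0.52 (limma adjusted p = 0.993), so that a change as large as that of Lox, -1.62, lay outside the interval.

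Within each group P4ha1 split by the presence of Y-linked reads. Wild-type libraries without such reads held 1662 and 1780 and those with them 945.7 and 1024, while the order was the reverse in mfn2-/- libraries. The change was 0.64 among libraries with Y-linked reads and -0.64 among those without. The interaction of genotype with Y-linked reads was 1.28 (SE 0.23, limma adjusted p = 0.0236) and rests on 2 libraries per combination. Such an interaction passed for 173 of 11754 genes (1.47%). P4ha1 was the 1 of the 10 enzymes to pass. In each group the libraries without Y-linked reads also held fewer reads in total. In wild-type their tenocyte markers, listed below, summed to 23550 and 23020 normalized reads, against 35030 and 33290 in those with Y-linked reads. The part of each in the P4ha1 split was not tested.

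P4ha2, the alternative alpha subunit, had 211.5, 316.3, 191.1 and 172.0 normalized reads in wild-type libraries and 198.7, 155.6, 109.8 and 38.48 in mfn2-/- libraries. The groups overlapped, with mfn2-/- replicate 4 lowest at 21 reads. The change was -1.01 with a 95% interval of -2.03 to 0.01 (limma adjusted p = 0.207). Without mfn2-/- replicate 4 it was -0.52 (limma adjusted p = 0.346), and with library weights -0.35 (limma adjusted p = 0.409). The upstream bases of P4ha1 are shown as those of the most abundant enzyme that did not pass, for comparison with Loxl4 and Plod1 (GRCm38.p6, chr10:59323046-59323295, plus strand):
P4ha1: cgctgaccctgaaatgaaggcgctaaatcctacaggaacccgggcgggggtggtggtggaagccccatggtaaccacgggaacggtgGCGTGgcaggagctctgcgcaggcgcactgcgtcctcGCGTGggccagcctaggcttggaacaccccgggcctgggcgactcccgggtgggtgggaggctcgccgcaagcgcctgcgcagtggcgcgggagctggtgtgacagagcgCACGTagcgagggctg
Here 3 matches to the HIF1 core letters were present, against 1 each in Loxl4 and Plod1. Plod3 held 4 and P4ha2 held 3. The E-box letters CAGCTG, present in 13.0% of all promoter windows, were in 0 of the 5.

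**Figure D2:**
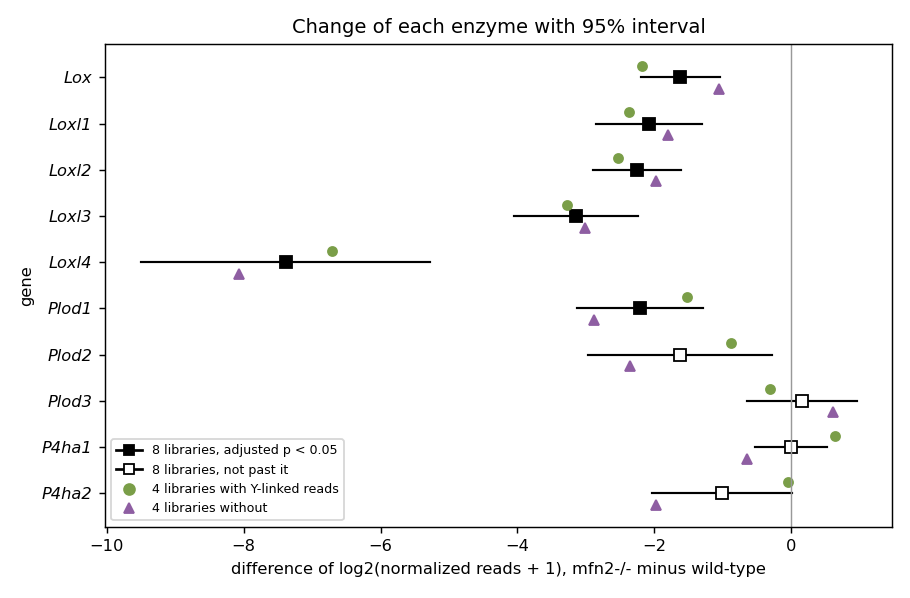
Difference of log2(normalized reads + 1), mfn2-/- minus wild-type, for each enzyme with its 95% interval (filled where adjusted p was under 0.05), and the values within the 4 libraries with (circles) and the 4 without (triangles) Y-linked reads. The 6 called enzymes are below 0 in both sets, and P4ha1 sits at 0.64 and -0.64.

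Within the Y-linked sets the 6 called enzymes were lower each time. Lox changed by -2.18 with and -1.06 without Y-linked reads. Its interaction did not pass the test (limma adjusted p = 0.245), nor did that of any other called enzyme. Loxl3 was nearly equal in the sets, at -3.27 and -3.02. P4ha2 changed by -0.04 with and -1.97 without, and its interaction also missed the threshold (limma adjusted p = 0.339).

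Levels of different enzymes were compared per kilobase of annotated exon. Wild-type ASCs held 750 ± 97.9 normalized reads per kilobase of lysyl oxidases in sum (SD, n = 4), led by Loxl2 at 269 ± 70.6 and Lox at 232 ± 25.7, whose ranges overlapped. Loxl1 followed at 125 ± 32.4, and Loxl4 (65.9 ± 11.5) and Loxl3 (58.8 ± 11.3) did not differ beyond their spread. In mfn2-/- ASCs the sum was 176 ± 37.8, or 4.27-fold lower. Lox was then first at 79.99 ± 34.2, with Loxl2 at 58.6 ± 24.4 and overlapping it. Loxl1 (30.5 ± 11.1) overlapped Loxl2, Loxl3 was at 6.43 ± 0.999, and Loxl4 had a mean of 0.375 with 3 libraries at 0. Lox made up 29.03% to 33.2% of the family in wild-type libraries, against 33.8% to 62.1% in mfn2-/- libraries. The share of Loxl4 fell from 7.23% to 10.9% in wild-type to at most 1.05% in mfn2-/- libraries, and that of Loxl3 from a mean of 7.83% to 3.80%.

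The PLOD enzymes summed to 176 ± 23.9 normalized reads per kilobase in wild-type and 87.9 ± 21.4 in mfn2-/- ASCs. Plod2 led in wild-type cells at 83.6 ± 11.2, above Plod1 (59.98 ± 6.10) and Plod3 (32.0 ± 11.7). In mfn2-/- cells Plod2 (37.7 ± 22.2) and Plod3 (35.2 ± 10.7) did not differ beyond their spread, and Plod1 was lowest at 15.1 ± 9.13. Plod3 made up 17.9% ± 4.25 of this family in wild-type libraries, against 44.5% ± 26.6 in mfn2-/- libraries, with 83.5% in mfn2-/- replicate 4. P4ha1 made up 88.2% to 92.3% of the alpha subunit level per kilobase in wild-type and 91.6% to 97.9% in mfn2-/- libraries. The alpha subunits summed to 365 ± 113 and 340 ± 72.4 normalized reads per kilobase. Per kilobase, P4ha1 was thus above each lysyl oxidase in mfn2-/- ASCs, where its lowest library (253.8) exceeded the highest of Lox (127.7).

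**Figure D3:**
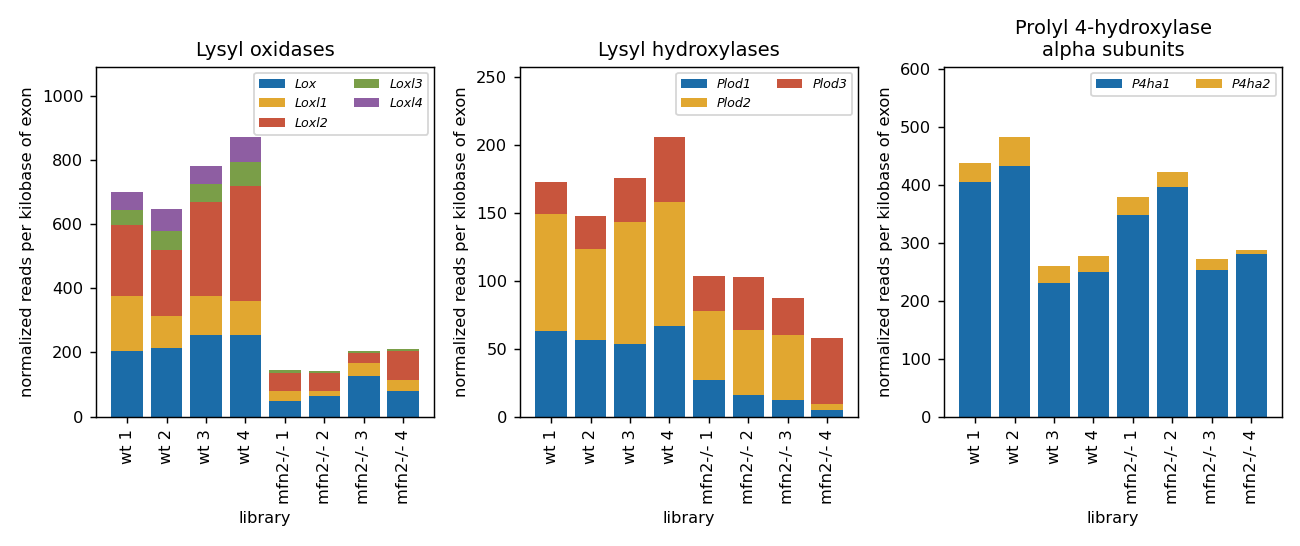
Normalized reads per kilobase of annotated exon, stacked by gene, in the 8 libraries (wt, wild-type) for the lysyl oxidases, the lysyl hydroxylases and the prolyl 4-hydroxylase alpha subunits. The lysyl oxidase stack is 648 to 873 in wild-type and 142.5 to 212 in mfn2-/- libraries, whereas the alpha subunit stacks overlap at 261 to 483 and 271 to 422.

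Other genes that modify collagen in the endoplasmic reticulum were lower to a variable extent. Of 18 such genes 17 were tested, 10 were lower and 0 higher, with a median change of -1.13. P4hb, the partner that the alpha subunits need, was lower by a small step (2330 ± 216 against 1366 ± 154 normalized reads, log2 change -0.77, limma adjusted p = 0.0110). Serpinh1, the collagen chaperone HSP47 and the most abundant of the list, had 4598 to 5178 normalized reads in wild-type and 2004 to 2444 in mfn2-/- libraries (-1.13, limma adjusted p = 0.00075). Larger changes were found for Creb3l1, a transcription factor for secretory genes (-3.39), Crtap (-3.28) and the prolyl 3-hydroxylase Leprel2 (-3.25). Lepre1 (-2.20) and Fkbp10 (-1.83), whose product assists PLOD2, were lower as well. Ppib, a prolyl isomerase, gave -0.46, and Mia3, needed for export of large cargo, gave -0.36, and neither was called. P4ha3 fell below the filter, with 4.27 to 26.1 normalized reads in wild-type and at most 0.737 in mfn2-/- libraries.

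Genes of procollagen end processing were lower as well. Of 8 genes 7 were tested, 5 were lower and 0 higher, with a median of -4.39. Bmp1, which cleaves procollagen and pro-LOX, had 996.9 to 1385 normalized reads in wild-type and 243.9 to 508.7 in mfn2-/- libraries (-1.68, limma adjusted p = 0.000917). Pcolce, an enhancer of BMP1, changed by -5.43, and the N-propeptide proteases Adamts2 and Adamts3 by -5.40 and -5.22. Of 7 partners that bring the oxidases to their substrates or supply metal, 4 were lower: Fmod (-8.35), Postn (-5.43), Fn1 (-4.87) and Fbln5 (-2.89). Atp7a, the copper pump that loads lysyl oxidases, gave 0.25 and was not called (limma adjusted p = 0.495).

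The substrates themselves were lower nearly throughout. Of 11 fibrillar collagen chains 10 were lower, with a median of -4.44, and of 7 further substrates, collagens IV, VI and XV and elastin, 7 were lower, with a median of -3.26. Col1a1 changed by -8.36, Col1a2 by -7.79 and Eln by -2.87. Col4a1, a basement membrane chain, changed least among the called chains of the second list (-1.29). For each 1000 reads of Col1a1, Lox had 9.37 to 12.3 reads in wild-type and 616 to 2214 in mfn2-/- libraries, and P4ha1 had 7.27 to 21.3 and 3372 to 5798. The enzymes were thus higher relative to Col1a1 in mfn2-/- cells, except Loxl4, for which 3 of 4 libraries had 0 reads. Col1a1 changed more than each enzyme, so this direction was set by the choice of Col1a1. The medians of both substrate lists lay below the changes of all enzymes but Loxl4. Some single substrates had smaller estimates. Loxl2 was at -2.25 against -1.29 for Col4a1 and -1.75 for Col4a2, and Loxl3 at -3.14 against -2.87 for Eln. The 95% intervals of each of these pairs overlapped, and changes of different genes were not tested against each other.

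**Figure D4:**
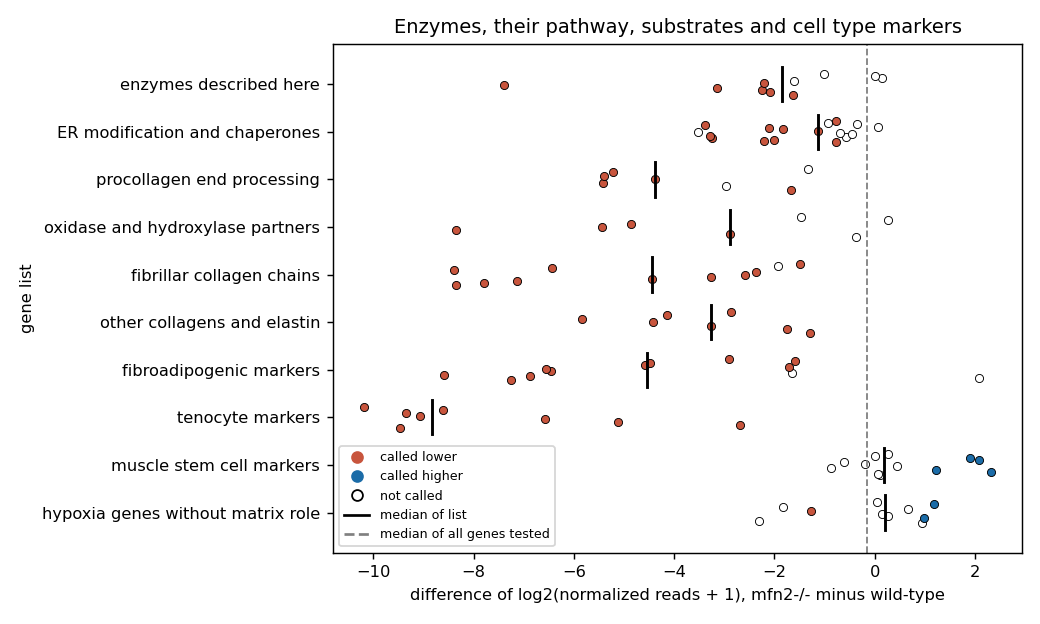
Difference of log2(normalized reads + 1), mfn2-/- minus wild-type, for each tested gene of the enzymes, their pathway, substrates, cell type markers and hypoxia genes (red, called lower; blue, called higher; white, not called), with the median of each list as a bar. The enzyme median is -1.85, that of the fibrillar chains -4.44, and that of all genes tested (dashed) -0.16.

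Markers of other cells moved with these changes. Of 14 fibroadipogenic markers 12 were tested and 10 were lower, with a median of -4.53, and their summed level was 0.853% to 1.10% of all normalized reads in wild-type and 0.137% to 0.195% in mfn2-/- libraries. Among the defining markers, Pdgfra had 1919 to 3475 normalized reads in wild-type and 0 to 64.85 in mfn2-/- libraries. Ly6a, another of them, went the other way from low values, with 0 to 26.96 in wild-type and 14.67 to 51.58 in mfn2-/- libraries. It was the 1 tested marker of the list above 0 (2.08, limma adjusted p = 0.309) and was not called. All 8 tenocyte markers were lower, with a median of -8.83, and summed to 0.544% to 0.864% and to 0.0056% to 0.00873% of normalized reads. Tnmd was at 0 in mfn2-/- replicates 3 and 4. Against wild-type the summed level was 16.5% for the fibroadipogenic markers and 0.962% for the tenocyte markers, with 23.6% for the lysyl oxidases and 91.5% for the alpha subunits. Most of the fibroadipogenic sum in mfn2-/- libraries came from Gsn (-1.72). Its mean was 5295 of a summed 6746 normalized reads there, against 17680 of 41020 in wild-type. The part of these cell types in the enzyme changes was not tested.

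The sorted cells nevertheless carried stem cell transcripts in both groups. Of 12 muscle stem cell markers 4 were higher (Myod1, Vcam1, Sdc4 and Des) and 0 lower by limma and by edgeR, with a median change of 0.18. Over all genes tested limma called 6.36% lower and 3.99% higher. By DESeq2 1 marker was lower. At an unadjusted limma p under 0.05, 1 was lower, the surface marker Itga7. It had 607.4 to 1988 normalized reads in wild-type and 497.4 to 727.3 in mfn2-/- libraries (-0.87, limma unadjusted p = 0.0179, adjusted p = 0.110). Pax7 had 629.6 to 730 normalized reads in wild-type and 582.2 to 803.5 in mfn2-/- libraries. The summed level of the 12 was 242% of wild-type, most of it from Sdc4 (2908 to 5871 against 14830 to 23210 normalized reads) and Des (1376 to 3104 against 5275 to 11500). Of the pericyte and smooth muscle markers 2 of 5 tested were lower, Pdgfrb (-2.99) and Cspg4 (-3.95). Macrophage (3 of 7 tested), endothelial (6 of 6) and glial (3 of 5) markers gave 0 calls by limma, edgeR or DESeq2 and 0 at an unadjusted limma p under 0.05, and the macrophage list summed to at most 0.00315% of normalized reads in any library.

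Hypoxia-responsive genes without a matrix role were for the most part not called. Of 11 such genes measured, 10 were tested. Ldha, a glycolytic enzyme, and Ndrg1 were higher (0.98 and 1.19), and Egln1, the main oxygen-sensing hydroxylase of HIF1, was lower (-1.27). The other 7 were not called and the median was 0.20. Over all genes tested 6.36% were lower and 3.99% higher. The 1 lower gene of 10 is thus near the share of all genes, while the 2 higher of 10 are above it. At an unadjusted limma p under 0.05, 3 were higher and 1 lower, without a share of all genes to set beside them. Hif1a had 634.1 to 1089 normalized reads in wild-type and 2320 to 3366 in mfn2-/- libraries, a change of 1.85 (limma adjusted p = 7.97e-05).

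Genes whose pattern over the 8 libraries was most like that of each called enzyme were listed by the root mean square distance of centred log2 values, as a description. Centring was over all 8 libraries, so a similar change with genotype by itself brings genes near. For Lox these were Txndc5 (0.206), Prrx1 (0.270) and Ntn1 (0.277), and for Loxl1 Itgb5 (0.283), Ckap4 (0.322) and Adam19 (0.340). Loxl2 was nearest to Emid2 (0.259), Kcnn3 (0.299) and Thy1 (0.304). Loxl3 lay nearest to Fbn1 (0.242), Col6a1 (0.260) and Mmp2 (0.280), which encode matrix proteins and a matrix protease. The nearest to Loxl4 were Dkk3 (0.288), Bmp5 (0.371) and Vit (0.401), with changes of -6.97, -7.38 and -6.83. Plod1 was nearest to the collagen chain Col5a3 (0.229), Wdr78 (0.267) and Svep1 (0.300).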

How the data were processed

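ASC RNA was extracted with a micro column kit and made into libraries with the SMARTer stranded pico input kit. The submitters' processing notes name Trim Galore, HISAT2, featureCounts, DESeq2 and build mm9. Their roles, versions and strand setting are not given in the sources used here. The table deposited by the authors gives a signal for each gene and library: a linear normalized read count. In every library 100% of these came out as whole reads (tolerance 0.01) after division by the smallest step, as a single size factor would leave them, and the reads were recovered for depth and for count-based alternatives. On these, edgeR called 657 genes lower and 501 higher. Without molecular identifiers, amplified copies count as reads.

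Groups and replicate numbers were taken from the titles. Genes with a mean of at least 10 were tested with limma 3.58.1 (R 4.3.3) after adding 1 and taking log2, with genotype alone in the model, the trend option on, two-sided, and Benjamini-Hochberg adjustment over all genes tested (threshold 0.05). Read totals were compared by an exact permutation test (p = 0.943, smallest possible 0.0286, n = 4 per group). Alternatives were other pseudocounts, filters, scalings, a replicate block, a Y-linked term, no trend, library weights, omission of each library, edgeR 4.0.16 and DESeq2 1.42.0. Omission of the shallowest library of each group was added after seeing the data. The fits were tested on simulated data. Coordinates, exon lengths and promoters are those of GRCm38 (GENCODE M21 and RefSeq), not mm9, and no coordinates came from the table.

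Members and lists were chosen with earlier results of these data known. All members were named. From each other list, called genes with the largest change and the most abundant genes were named, up to 6, and Mfn2, Hif1a, Mia3, P4ha3 and further genes of special function were named after their values were seen. Likeness used the 3 nearest tested genes for each called member.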

Additional observations from a re-analysis of the deposited data

Results flagged for a closer look

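In 26 sets of 4 values (each enzyme and the summed stem cell, fibroadipogenic and tenocyte markers, per group), 2 had 1 library apart from the rest by Dixon's ratio at 95%, and chance alone flags about 1 in 20 sets. Loxl4 had 6.32 normalized reads in mfn2-/- replicate 2, with the other 3 mfn2-/- libraries at 0. With 3 values tied at 0 the ratio is 1.0 whatever the remaining value. That flag thus follows from the zeros, and the rate of 1 in 20 does not apply to it. Plod2 had 23.82 normalized reads in mfn2-/- replicate 4, against 256.8 to 272.0 in the others. That library was shallow and had the fewest genes with a read. P4ha1 differed between libraries with and without Y-linked reads in its change with genotype, by 1.28 on the log2 scale (limma interaction, adjusted p = 0.0236, 2 libraries per combination).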

How the results depend on the processing

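The 6 called enzymes were lower, and called, under all 22 alternatives with a test, and 0 enzymes were called higher under any. The count called lower was 7, with Plod2 (-0.94, -0.77 and -0.75), under library weights, without mfn2-/- replicate 4 and without the shallowest library of each group. Counts for the other biosynthesis genes and the substrates moved by less than 1.5 times. Quantile normalization moved the median of all genes from -0.16 to 0.13, and Lox was then at -1.68. The number of genes called over the whole table, 748 lower and 469 higher, moved with library weights (1639 and 1398), without the trend (520 and 113) and with 1 library left out (436 to 842 and 235 to 489, both lowest without wild-type replicate 3). The sign of 2 uncalled enzymes turned. Plod3 was at -0.12 with library weights, -0.15 without the shallowest libraries, -0.30 within libraries with Y-linked reads, and between -0.0148 and 0.37 with each library left out. P4ha1 was at 0.0418 with equal totals, 0.0398 with upper-quartile scaling, 0.44 with library weights, 0.0466 with edgeR, 0.17 without the shallowest libraries, 0.64 within libraries with Y-linked reads, and between -0.16 and 0.15 with each library left out. The cause was not tested. Same-numbered libraries did not deviate together (correlations -0.111 to 0.0383), so the numbers do not pair the samples. With the replicate block 609 genes were lower and 434 higher, and the 6 enzymes were again the ones called. The block is balanced and leaves each change as it was (Lox -1.62), so that only the p-values respond: that of Lox was 0.00166 after limma adjustment. Levels per kilobase depend on the length used: by longest transcript Plod1 was 99.03 and 24.9, Plod3 44.1 and 48.5, P4ha2 72.8 and 41.1 in wild-type and mfn2-/-, and Plod2 123 in wild-type. Depth limits values of a few reads, mainly in mfn2-/- replicate 4.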
